A study of Schizosaccharomyces pombe with 7 samples.

Results

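UV21 is a strain of fission yeast (Schizosaccharomyces pombe), and what sets it apart genetically is not stated in the labels. Its H3K9me2 array was set against the wild-type (WT) array of the same series, which shares its slide, so the comparison rests on 2 of the 7 arrays of the study. The 2 other WT arrays, of series 2 and series 3, show how far WT arrays differ among themselves. The cells of all 4 arrays grew in rich medium at 30 °C, and UV21 and WT are the only genotypes the labels give for them. The remaining arrays are 2 of fft3∆ cells and 1 of Fft3-GFP. DNA pulled down with an antibody against H3K9me2 was labelled with Cy5, DNA of the whole-cell extract with Cy3, and both were hybridised to tiling arrays of 60-nucleotide probes spaced 300 bp apart.

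H3K9me2, dimethylation of histone H3 at lysine 9, is written in fission yeast by the methyltransferase Clr4 and is bound by chromodomain proteins such as Swi6. The large domains that carry it are the pericentromeric repeats, the silent mating-type region and the subtelomeres. Small islands of it lie over some meiotic genes, whose RNA is removed in growing cells with the help of the RNA-binding protein Mmi1. Away from the sites where it is set up, the mark can spread along the chromosome until it meets a boundary.

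Each value below is log2 of Cy5 over Cy3 minus the median of the array, so 0 is the typical probe and a difference of 1 is 2-fold. Of 41490 probes, 34421 were flagged by the scanner as well above background in Cy3 and as uniform on all 4 arrays, and they filled 6202 windows of 2 kb with at least 3 probes and 4791 genes with at least 2. UV21 against WT series 1 alone is 1 array against 1, with no test. For a single value an exact permutation over the 3 WT arrays and the UV21 array cannot go below p = 0.25 one-sided or 0.5 two-sided. Values of UV21 are therefore set against the range of the 3 WT arrays. Across all windows, limma compared UV21 with the 3 WT arrays, under the assumption that UV21 would vary as the WT arrays do. Nothing in the labels says that the WT arrays came from separate cultures, so their spread may be technical.

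WT series 1 and UV21 share more than the slide. In both, the extract DNA was missing over 18 probes at 2932501 to 2937660 and 5 at 2939101 to 2940360 on chromosome 1. It was also missing over 12 probes at 25201 to 28560 of the separate mating-type contig of the array. The median Cy3 signal over the first stretch was 0.754% of the array median in UV21 and 0.945% in WT series 1, against 118% in WT series 2 and 106% in WT series 3. The WT arrays thus did not all hold the same extract DNA. Their range and the spread that limma used may include differences between strains, which was not tested. WT series 3 stood apart in brightness, with a median Cy3 signal 208 times its local background and 3.65% of probes saturated, where the other arrays had none. In WT series 3 alone, extract signal was low over further stretches. One of them, 7 probes at 5553001 to 5554860, lies in the last 50 kb of the right arm of chromosome 1. The median Cy3 signal there was 10.4% of the array median, against 42.2% in UV21, 30.1% in WT series 1 and 24.8% in WT series 2. At fft3 the 12 probes had extract signal in UV21 close to that in WT series 1 (a log2 Cy3 difference of −0.12), and its H3K9me2 was −0.31 in UV21 and between −0.49 and −0.11 in WT.

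H3K9me2 in UV21 was lower at the mating-type region, at ura4, at the subtelomeres and at meiotic islands, and it was higher at all 3 pericentromeres and in the chromosome arms beside them. Of the 6202 windows, 131 were at least 2-fold lower in UV21 than in WT series 1 (2.11%) and 62 at least 2-fold higher (1.0%). All 131 lower windows and 61 of the 62 higher ones lay outside the range of the 3 WT arrays. Over all windows, UV21 was below all 3 WT arrays in 24.5% and above them in 25.8%. The windows were picked by their distance from WT series 1, itself part of that range. This favours values outside it, so the shares are not a like measure. The same count between WT arrays gave 13 lower and 14 higher windows for WT series 2 against WT series 1, and 1 lower and 88 higher for WT series 3. Among the lower windows were all 14 of the mating-type region, 17 of 19 on the mating-type contig, 47 of 93 subtelomeric windows (within 50 kb of an end of chromosome 1 or 2) and 17 of 98 windows lying 50 to 100 kb from those ends. The higher ones comprised 45 of 58 pericentromeric windows and 13 of 150 in the 50 kb to each side, but none at the subtelomeres. In the remaining arms 36 of 5503 windows were lower and 2 higher. Probes of the mating-type contig and of the mating-type region may read the same DNA, so these counts may hold 1 locus more than once. The same may hold for repeat probes of different pericentromeres.

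**Figure D1:**
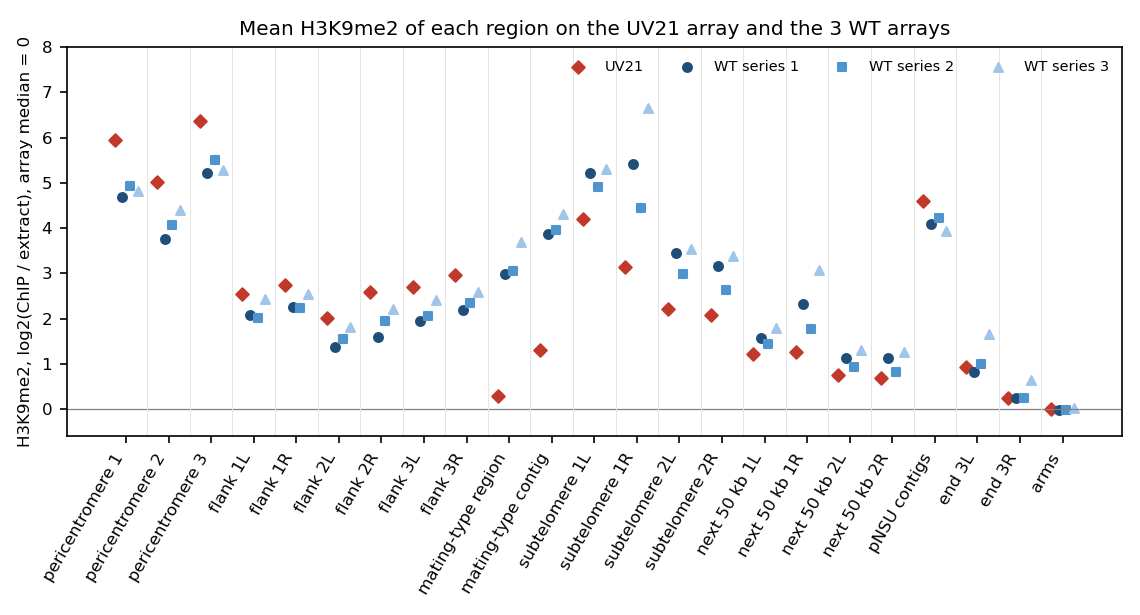
Mean H3K9me2 (log2 of ChIP over extract signal, array median at 0) of each region, with 1 point per array and UV21 at the left of each group. UV21 lies above the 3 WT arrays at the 3 pericentromeres, their 6 flanks and the pNSU contigs, and below them at the mating-type region, the mating-type contig, the 4 subtelomeres and the 4 regions next to those.

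By limma with Benjamini-Hochberg adjustment over all windows, 36 windows were lower in UV21 than in WT (0.580%) and 3 higher (0.0484%). The lower ones were 8 in the mating-type region, 15 on the mating-type contig, 4 within 50 kb of the mating-type region, 4 in the subtelomeres and 5 elsewhere in the arms. The 3 higher ones were pericentromeric. Windows of the mating-type region and of the contig may again count the same DNA more than once. For genes, limma called 40 lower (0.835%) and 0 higher (0.00%), while at an unadjusted p under 0.05 it gave 144 lower and 203 higher. These counts moved with the WT arrays used. Without WT series 3 limma called 137 windows lower and 197 higher, and 86 genes lower and 86 higher. Without WT series 1 it called 94 windows lower and 11 higher and 0 genes, with a smallest adjusted p of 0.0546 and 119 genes lower and 87 higher at an unadjusted p under 0.05. Without WT series 2 it called 58 windows lower and 1 higher. A fit that added the 2 fft3∆ arrays to the estimate of the spread called 0 windows and 0 genes, with 159 windows lower and 114 higher and 107 genes lower and 76 higher at an unadjusted p under 0.05.

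The mating-type region of chromosome 2, with the mat1 cassette that sets the mating type and the silent cassettes that serve as its donors, carried little of the mark in UV21. At 2111142 to 2140054 the 90 probes averaged 0.29 in UV21, against 2.99, 3.05 and 3.69 in WT series 1, 2 and 3. The difference from WT series 1 was −2.71, or 6.53-fold, and each of the 90 probes was lower in UV21 than on all 3 WT arrays. Single probes in UV21 ran from −0.58 to 1.45 with a median of 0.23, while in WT series 1 they ran from 0.77 to 6.56 with a median of 2.16. The extract signal was 0.32 higher in UV21 on the log2 scale and the ChIP signal 2.40 lower. Whether the extract difference contributes was not tested.

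Inside this region mat1-Mc and mat3-Mc, which encode a mating-type regulator of M cells in the expressed and in the silent cassette, were the genes that differed most. The mean of the 2 probes of mat1-Mc (2116201 to 2116560) was 0.84 in UV21, against 5.60, 5.55 and 6.23 in WT series 1, 2 and 3. The 2 probes of mat3-Mc (2134501 to 2134860) averaged 0.76 in UV21, against 5.39, 5.39 and 6.00. Both fell by limma, with log2 differences from the WT mean of −4.95 ± 0.29 and −4.83 ± 0.27 (SE, adjusted p = 0.00481 each). The M cassettes share their sequence, so their probes can bind DNA of either copy. Extract signal at them was 1.16 and 1.09 higher in UV21 on the log2 scale. Of the 8 cassette genes listed, 4 are in the annotation, 3 had probes and these 2 passed the filter on probes.

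The low values went far beyond the cassettes. The longest run of windows at least 2-fold lower in UV21 was 84 kb, from 2090001 to 2174000 on chromosome 2, in which 40 of 42 windows passed. It averaged 0.10 in UV21, against 1.94, 2.03 and 2.56 in WT series 1, 2 and 3. In the first 10 kb outside the region UV21 had 0.06 and the WT arrays 1.45, 1.56 and 2.08. Between 40 and 50 kb out the means were −0.15 in UV21 and 0.28, 0.45 and 0.63 in WT, and between 60 and 70 kb UV21, at 0.43, lay within the WT values of 0.36 to 0.75. Within 50 kb of the region 25 of 47 genes were at least 2-fold lower and none higher, beside 1.73% of all genes lower. Limma called 15 of the 47 lower, beside 0.835% of all genes. Among the 15 were aha1, a cochaperone of Hsp90, emc3 of the ER membrane complex, the copper transporter gene ctr6 and cdc73 of the Paf1 complex.

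On the separate mating-type contig the 90 kept probes fell into a low and a high group. In 6 of the 90 the extract signal, though flagged well above background, was more than 3 below the array median on the log2 scale on at least 1 array, in UV21 for 1 of them. In 80 of them UV21 was below all 3 WT arrays, by up to 6.14 against WT series 1. The other 10, between 28801 and 32760, were above all 3 WT arrays, with a median of 8.34 in UV21 and 7.17, 7.19 and 6.45 in WT series 1, 2 and 3. These 10 had H3K9me2 as high as the pericentromeric repeats. They stand directly after the 12 probes that had no extract DNA in UV21 or WT series 1. The probe at 31201, inside the span of the 10, did not pass the filter. Its log2 Cy3 was −7.64 in UV21 and −6.22 in WT series 1, against −0.739 and −0.999 in WT series 2 and 3. Extract DNA was thus missing at this probe too on both series 1 arrays. The silent mating-type region is known to hold an element similar to the pericentromeric repeats, called cenH. Whether these 10 probes read that element or repeat DNA from the centromeres was not tested.

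**Figure D2:**
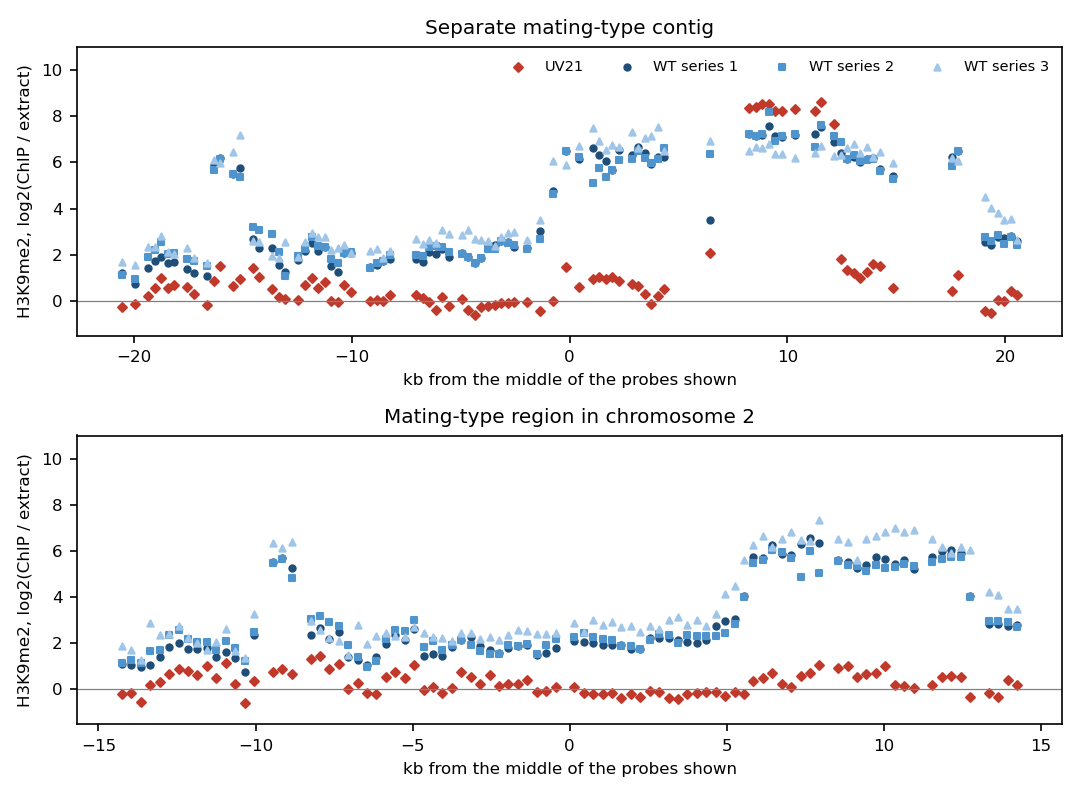
H3K9me2 (log2 of ChIP over extract signal) of single probes on the mating-type contig and in the mating-type region, by distance in kb from the middle of the probes shown, with UV21 as red diamonds and the WT arrays in blue. Nearly all UV21 points lie close to 0, under WT points mostly between 1 and 7, except 10 probes on the right of the contig where UV21, around 8, is above WT.

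ura4, which encodes the orotidine phosphate decarboxylase of uracil synthesis and is widely placed in heterochromatin as a reporter, carried the mark on all WT arrays and hardly in UV21. Its 4 probes (115501 to 116460 on chromosome 3) averaged 0.85 in UV21, against 5.61, 5.80 and 6.69 in WT series 1, 2 and 3. Single probes read 1.13, 1.03, 0.70 and 0.55 in UV21 and 5.84, 5.45, 5.59 and 5.58 in WT series 1. The gene fell by 5.18 ± 0.41 (SE) on the log2 scale against the WT mean by limma (adjusted p = 0.0140), and by 4.76, or 27.1-fold, against WT series 1 alone. Kept probes beside the gene carried less of it: the 5 to its left averaged −0.21 in UV21 and 0.65, −0.28 and 1.57 in WT series 1, 2 and 3, and the 3 to its right −0.42 in UV21 and 0.51, −0.43 and 1.01 in WT. The nearest probe to the right, at 116701, did not pass the filter and read 0.19 in UV21 and 5.66 in WT series 1. Extract DNA over the gene was more abundant in UV21, with a log2 Cy3 of 0.63, against −0.37, −0.78 and −1.86 in WT series 1, 2 and 3. The difference of 1.0 from WT series 1 compares with 0.26 and 0.37 in the probes to its left and right. A different number of ura4 copies in the strains cannot be told apart here from a different yield of its DNA.

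None of the other 6 strain marker genes was 2-fold apart from WT series 1. his2, to the right of the mating-type region and within 50 kb of it, had 0.05 in UV21, against 0.97, 1.17 and 1.67 in WT series 1, 2 and 3. Its difference from the WT mean was −1.22 ± 0.28 (SE, adjusted p = 0.264 by limma). ade6 had 0.45 in UV21 and −0.16, 0.23 and 0.26 in WT. For leu1, lys1, arg3 and his3 the differences from WT series 1 were 0.21, 0.34, −0.01 and 0.34.

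The subtelomeres kept part of the mark. Over the last 50 kb of the right arm of chromosome 1, UV21 averaged 3.15, against 5.42, 4.43 and 6.66 in WT series 1, 2 and 3, a difference from WT series 1 of −2.27, or 4.84-fold. At the left end of chromosome 1 the means were 4.20 in UV21 and 5.22, 4.90 and 5.32 in WT. The left end of chromosome 2 had 2.22 in UV21 and 3.45, 2.99 and 3.54 in WT, and its right end had 2.07 in UV21 and 3.16, 2.62 and 3.38 in WT. UV21 was below all WT arrays at each end, but the ends differed in size of the effect and WT series 2 was the nearest WT array each time. Extract signal in UV21 was 0.37 to 0.51 above WT series 1 at these ends on the log2 scale, and ChIP signal 0.59 to 1.75 below. Its part in the ratio was not tested.

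The difference varied with distance from the end. Pooled over the 4 ends in bins of 10 kb, UV21 averaged 4.91, 3.53, 2.51 and 2.21 from the end inwards, against 6.14, 5.0, 4.44 and 3.69 in WT series 1, with a gap of −1.94 at 20 to 30 kb. The ends differed: the gap was −2.30 at 20 to 30 kb on 1L and −3.60 on 1R, while on 2L and 2R it was −2.51 and −2.45 in the first 10 kb and −0.58 and −0.72 at 20 to 30 kb. The pooled gap was −0.71 from 50 to 60 kb and −0.27 from 90 to 100 kb. UV21 was under all 3 WT arrays in each of the 20 pooled bins up to 200 kb, beside 24.5% of all 2 kb windows. In the next 50 kb the differences were −0.36, −1.05, −0.37 and −0.44 for 1L, 1R, 2L and 2R. The 2 ends of chromosome 3, which hold the ribosomal DNA, differed by 0.10 and 0.00.

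Of the 48 subtelomeric genes measured, 28 were at least 2-fold lower, beside 1.73% of all genes, and 6 of the 10 genes furthest down in the genome lay at the right end of chromosome 1. SPAC977.14C, 60.6 kb from its left end, was another, with 2.71 in UV21 and 5.46, 4.71 and 6.19 in WT series 1, 2 and 3. SPAC186.08C (5544601 to 5545260) had 2.61 in UV21, against 6.43, 4.65 and 6.87 in WT series 1, 2 and 3, and pdc102, which encodes a pyruvate decarboxylase, had 2.82 in UV21 and 6.39, 5.20 and 7.01 in WT. For neither did limma's adjusted p pass (0.286 and 0.123), since the WT arrays themselves differed by over 1.8. SPAC186.06, SPAC186.07C and SPAC750.01, 22.5 to 36.3 kb from the same end, differed from WT series 1 by −2.86, −3.40 and −3.42. Limma called 11 of the 48 lower, beside 0.835% of all genes, including SPAC750.01 (−3.27 ± 0.43, SE, adjusted p = 0.0418), SPAC977.04 and ftm2 at the left end of chromosome 1.

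The first 10 kb at the left end of chromosome 1 were higher in UV21, unlike those of the other ends, with 7.11 in UV21 and 6.71, 6.68 and 6.38 in WT series 1, 2 and 3. There lies tlh1, a telomere-linked gene of the RecQ helicase family, which had 7.22 in UV21 over 16 probes, against 6.78, 6.78 and 6.40 in WT series 1, 2 and 3. Limma gave a log2 difference from the WT mean of 0.57 ± 0.20 (SE, adjusted p = 0.613), so the call was not made. Over the pNSU contigs, placed apart from the chromosomes on the array, the 120 probes averaged 4.59 in UV21 and 4.09, 4.23 and 3.94 in WT. Each of the 9 contigs was above WT series 1 in UV21, by 0.12 to 0.68, and 8 were above all WT arrays, and the extract signal was 0.22 lower in UV21. tlh1 and the subtelomeres have near-identical copies at other chromosome ends, so a probe there may report several of them.

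**Figure D3:**
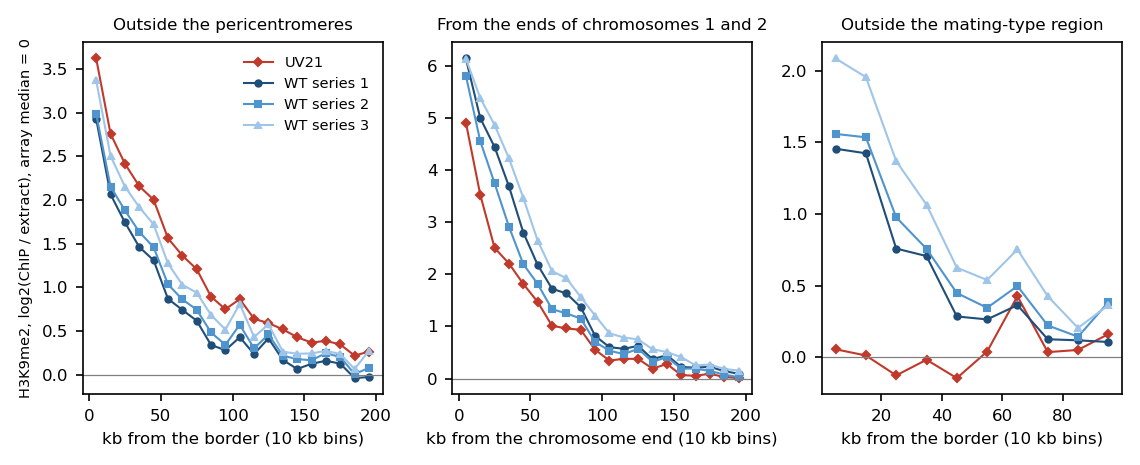
Mean H3K9me2 (log2 of ChIP over extract signal) in bins of 10 kb, by distance in kb outward from the pericentromere borders, inward from the ends of chromosomes 1 and 2, and outward from the mating-type region, with UV21 in red and the 3 WT arrays in blue. UV21 runs above the WT arrays beside the pericentromeres, below them from the chromosome ends, and near 0 beside the mating-type region.

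At the pericentromeres UV21 was above every WT array. Pericentromere 1 averaged 5.94 in UV21, against 4.68, 4.92 and 4.82 in WT series 1, 2 and 3. Pericentromere 2 averaged 5.02 in UV21 and 3.75, 4.06 and 4.39 in WT, and pericentromere 3 averaged 6.36 in UV21 and 5.22, 5.50 and 5.28 in WT. Over all 325 probes UV21 was 1.21 above WT series 1, or 2.32-fold, with ChIP signal 1.08 higher and extract signal 0.16 lower on the log2 scale. No probe was 2-fold lower and 225 were at least 2-fold higher. Probes in the repeats may read DNA of more than 1 pericentromere, so the 3 means may not be separate measurements. This was not tested. The median of the probes' differences was 1.19, while the difference between the arrays' median levels over the 325 probes was 0.36.

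The direction of this difference depends on which column of the scanner output is read. The scanner's processed Cy3 signal of the UV21 array, and with it the ratio in the deposited value table, was 2.99, 3.01 and 3.00 times (medians) the background-subtracted signal over all 161, 132 and 131 probes of 3 stretches around the centromeres. Processed signals gave UV21 pericentromeric means of 4.34, 3.42 and 4.95, which are 0.34, 0.33 and 0.27 below WT series 1 and below all WT arrays. The scanner's own ratio column and the background-subtracted signals of the same spots do not hold this factor, and no WT array showed it. With processed signals the flanks of pericentromere 1 also came within the WT range, at 2.32 (left) and 2.42 (right) in UV21, and limma called 0 windows higher, with 194 higher at an unadjusted p under 0.05. The flanks outside those stretches are free of it: over their 904 probes UV21 averaged 2.48, against 1.79, 1.91 and 2.21 in WT.

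On average the higher level reached each part of the pericentromeres, their less marked middle included. Of the 58 pericentromeric windows 51 were above all WT arrays in UV21, beside 25.8% of all windows. Cut into 3 equal parts by position, the middle of pericentromere 3 averaged 4.68 in UV21 and 3.07, 3.79 and 3.53 in WT series 1, 2 and 3, while its left part averaged 7.22 in UV21 and 6.25, 6.34 and 6.11 in WT. In pericentromeres 1 and 2 the middle parts were 1.39 and 1.34 above WT series 1 in UV21, and the outer parts 1.08 to 1.32. All 9 parts were higher in UV21 than on every WT array. In pericentromere 3, the 27 probes without a name mark f or m averaged 4.12 in UV21 and 3.51, 3.49 and 4.17 in WT. UV21 thus lay within the WT range there. Probes without a name mark in pericentromeres 1 and 2 averaged above all WT arrays, as did those with the mark m in all 3. The longest run of windows at least 2-fold higher was 32 kb, at 3754001 to 3786000 in pericentromere 1, where 15 of 16 windows passed.

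**Figure D4:**
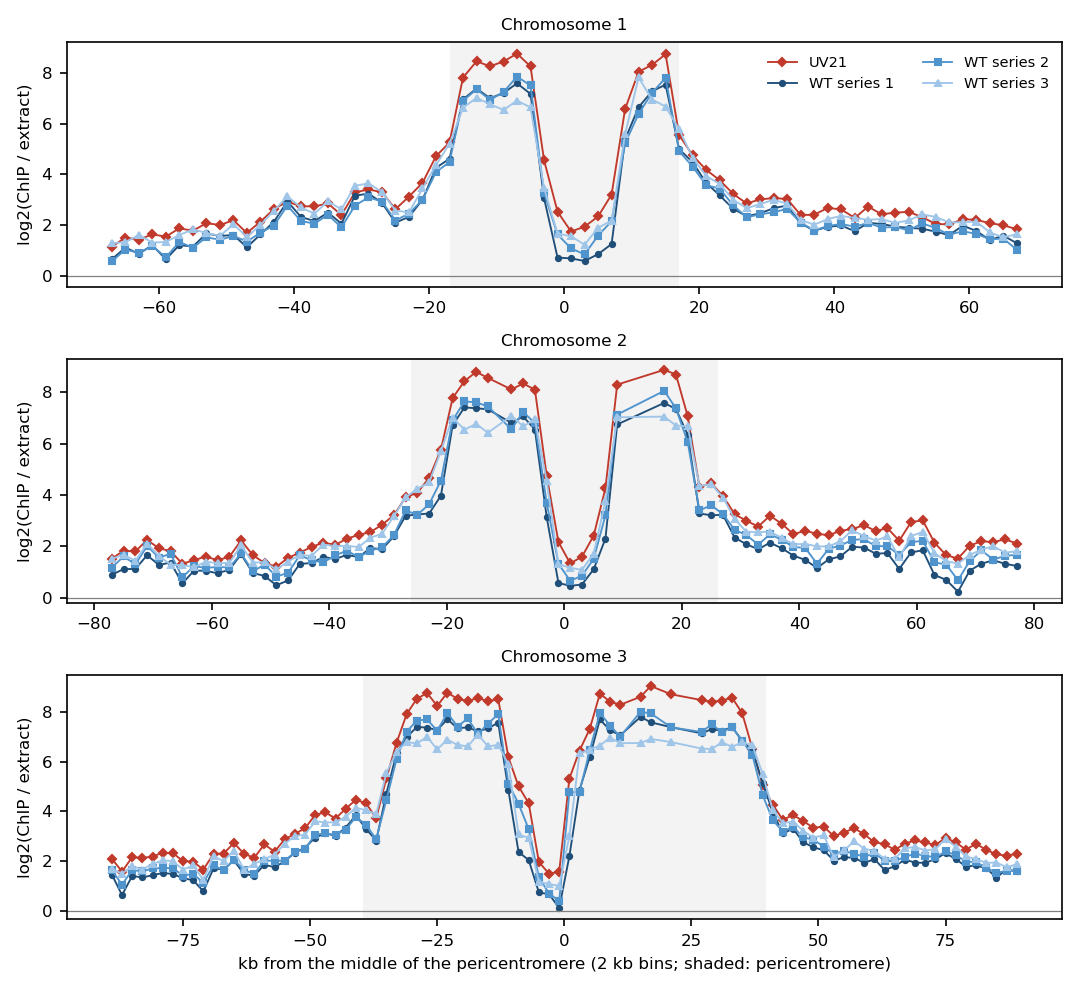
H3K9me2 (log2 of ChIP over extract signal) around the 3 centromeres, as means of 2 kb bins by distance in kb from the middle of each pericentromere, which is shaded, with UV21 in red and the WT arrays in blue. UV21 is the highest line over most of the repeats, the low middle and the flanks.

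The mark was also higher outside the repeats, where genes lie. In the 50 kb to each side, UV21 averaged 2.59 and the WT arrays 1.91, 2.03 and 2.34, and each of the 6 flanks was above all WT arrays, by 0.48 (left of pericentromere 1) to 0.99 (right of pericentromere 2) over WT series 1. In bins of 10 kb the difference from WT series 1 stayed between 0.67 and 0.70 up to 60 kb from the border, was 0.47 at 90 to 100 kb and 0.22 at 170 to 180 kb. UV21 was above all WT arrays in each pooled bin up to 190 kb. At 190 to 200 kb it was within their range, at 0.27 beside 0.28 in WT series 3. With each of the 6 sides taken alone up to 190 kb, it was above them in 102 of 114 bins, within their range in 11 and below in 1. Of all 2 kb windows, 25.8% were above all WT arrays. Scaling the arrays to an equal pericentromeric mean turned the sign in both flanks of pericentromere 1, to −0.059 and −0.087, at pericentromere 3, to −0.20, and at the pNSU contigs, to −0.50. WT series 3, the closest WT array here, averaged 0.26 below UV21 in the flanks. That 1 bin lies 120 to 130 kb to the left of pericentromere 2, with a difference of −0.99, and holds mei4. Extract signal in UV21 differed from WT series 1 by −0.21 to 0.11 in the bins of single sides.

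Of the 132 genes in the flanks, 14 were at least 2-fold higher and none lower, beside 0.334% of all genes higher, and the 10 genes furthest up all lay there, 11.6 to 42.1 kb from a border. fba1, the gene of the glycolytic enzyme fructose-bisphosphate aldolase, had 1.48 in UV21, against 0.01, 0.59 and 1.23 in WT series 1, 2 and 3. lsg1, a GTPase gene of ribosome assembly, had 3.00 in UV21 and 1.71, 2.11 and 2.42 in WT, and set9, which encodes the H4K20 methyltransferase, had 3.25 in UV21 and 2.16, 2.40 and 2.64. Also among the 10 were pat1, the kinase that restrains meiosis, at 2.96 in UV21 and 1.79, 2.26 and 2.47 in WT, and wat1, a WD-repeat gene, at 2.73 in UV21 and 1.52, 2.05 and 2.06. None passed limma's test, with adjusted p = 0.793 for fba1 and 0.478 for lsg1. At all 10 genes WT series 1 was the lowest WT array and WT series 3 the highest. The extract signal at them was lower in UV21, with log2 differences of −0.37 (fba1) to −0.16 (SPBC21B10.15), and its part in the ratio was not tested. Counts of higher genes rest on the choice of WT array: over all genes 16 were at least 2-fold higher than in WT series 1, 2 than in WT series 2, 3 than in WT series 3 and 0 than the mean of the 3.

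Along the arms, away from the large domains, few places were lower, and most of them were meiotic genes and their neighbours. More than 50 kb from the mating-type region, 10 of 5451 arm windows and 10 of 4328 genes were at least 2-fold lower in UV21 (0.183% and 0.231%). Of these genes mei4, ssm4, mcp7, num1 and mug9 belong to the list of 10 Mmi1 targets, all of which were measured. ubp8, but1 and cdk9 are neighbours of mcp7, ssm4 and mei4, and ura4 and mbx2 complete the 10. In the Mmi1 list 5 genes were at least 2-fold lower and none higher, with a median difference of −0.84, beside 0.01 over all genes. In 7 of the 10 UV21 was below all WT arrays, as it was in 22.0% of all genes.

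mei4, which encodes the forkhead transcription factor of mid-meiosis, had 1.62 in UV21 over 8 probes, against 4.13, 4.29 and 4.70 in WT series 1, 2 and 3. ssm4, a meiotic dynactin-related gene, had 0.80 in UV21 and 3.21, 3.38 and 3.68 in WT. mcp7, a gene of meiotic recombination, had 0.97 in UV21 and 2.80, 2.88 and 3.45 in WT. These 3 fell by limma, by 2.75 ± 0.24, 2.62 ± 0.21 and 2.07 ± 0.27 (SE) on the log2 scale against the WT mean, with adjusted p = 0.0156, 0.0140 and 0.0418. num1, called mcp5 in fission yeast literature and a cortical anchor of dynein in meiosis, had 0.33 in UV21 and 1.72, 2.30 and 1.83 in WT (adjusted p = 0.0594 by limma). mug9 had 0.48 in UV21 and 1.58, 2.66 and 1.60 in WT (adjusted p = 0.467). The other 5 had no island in WT: spo5, rec8, crs1, mug10 and mug8 lay between −0.19 and 0.70 on all WT arrays. Of these, mug8 had −0.23 in UV21 and 0.34, 0.70 and 0.29 in WT series 1, 2 and 3 (adjusted p = 0.515 by limma). mug8 and mug10 were below all WT arrays in UV21, and spo5, rec8 and crs1 within their range. mbx2, a MADS-box regulator of flocculation that is on none of the lists, fell as well, with −0.25 in UV21 and 1.70, 1.73 and 1.39 in WT (−1.86 ± 0.19, SE, adjusted p = 0.0291 by limma).

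RNA that Mmi1 binds is known to carry clusters of the hexamer UNAAAC. Coding sequences of the assembly ASM294v3 were searched on the coding strand for TNAAAC, with overlapping matches counted, and 78.1% of 5145 hold it at least once. Stretches of 120 bases with 4 matches occur in 18 of the 5145 (0.350%), mei4 and ssm4 among them. mcp7, which limma also called lower, had at most 3 matches in 120 bases, a number that 173 coding sequences reach (3.36%). The densest stretches of mei4 and ssm4 are shown because these are the islands of the list with the largest differences, with the matches in capitals.
mei4, coding bases 658 to 777, plus strand of chromosome 2: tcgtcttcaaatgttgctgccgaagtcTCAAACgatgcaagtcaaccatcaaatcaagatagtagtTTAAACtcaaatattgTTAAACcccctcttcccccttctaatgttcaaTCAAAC
ssm4, coding bases 1412 to 1531, minus strand of chromosome 1: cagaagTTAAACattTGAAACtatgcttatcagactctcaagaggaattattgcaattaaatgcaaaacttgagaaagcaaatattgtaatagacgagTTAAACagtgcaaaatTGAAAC
Over the whole coding sequence mei4 held 6.44 and ssm4 6.46 matches per kb, values that 1.26% and 1.21% of coding sequences reach. Density did not sort the list: mug9, mcp7 and num1 held 12.8, 7.90 and 6.19 per kb, while crs1 and rec8, without an island on these arrays, held 7.75 and 6.52. A match is a description of the letters only.

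**Figure D5:**
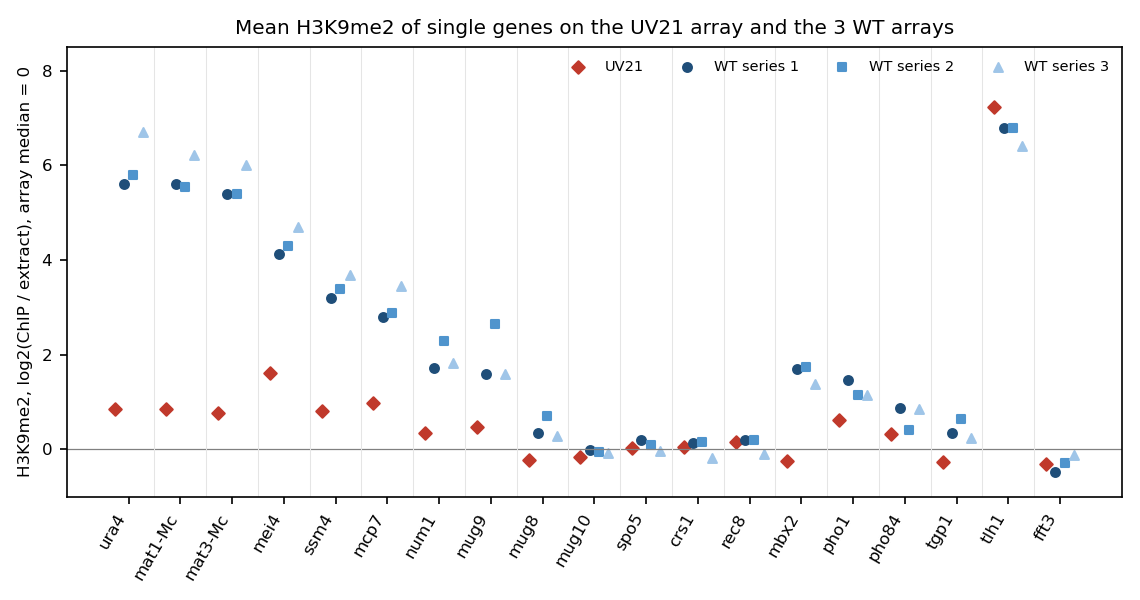
Mean H3K9me2 (log2 of ChIP over extract signal) of single genes, with 1 point per array and UV21 at the left of each group. UV21 is below 2 at ura4, both cassette genes and the islands of mei4, ssm4, mcp7, num1, mug9 and mbx2, where WT arrays reach up to 6.69, and it is above WT at tlh1.

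Marked places elsewhere in the arms were compared in the same way. Outside the 50 kb around the mating-type region, 61 arm windows had at least 1 on both WT series 2 and WT series 3. Of these, 35 lay within 200 kb of a pericentromere, and UV21 was above all WT arrays in 28 of them and below in 4. These 4 were 3 windows at mei4 and its neighbours and 1 at SPAC8C9.04 (3648001 to 3650000 on chromosome 1), with 0.85 in UV21 and 1.74, 1.77 and 2.21 in WT series 1, 2 and 3, a place named after its values were seen. Of the 26 elsewhere, UV21 was below all WT arrays in 8, within their range in 16 and above in 2, where 24.5% of all windows were below and 25.8% above all WT arrays. The 61 windows were picked for high values on 2 of those WT arrays, which favours UV21 below over UV21 above. The shares over all windows are therefore not a like measure. The 8 low ones covered ssm4, ura4, mcp7, mbx2, num1 and the window beside mug9. Among those not lower were the window at mae2, the gene of the malic enzyme, with 3.20 in UV21 and 2.88, 2.88 and 3.57 in WT series 1, 2 and 3, and the window at mae1, the gene of the malic acid transporter, with 2.80 in UV21 and 2.34, 2.43 and 2.62 in WT.

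The other gene lists showed small differences from WT series 1. The 18 measured genes of the heterochromatin machinery had a median difference of 0.01 and ranged from −0.17 (clr4) to 0.34 (tas3), with none 2-fold apart. Of 12 housekeeping genes only fba1, in a flank, was 2-fold apart. The 9 measured histone genes ranged from −0.03 to 0.46 and the 11 measured Tf2 retrotransposons, whose copies cannot be separated by such probes, from −0.33 to 0.07. The Fun30 remodeller genes fft1, fft2 and fft3 differed by 0.01, 0.09 and 0.18. The phosphate genes pho1 and pho84, which lie 50 to 100 kb from the right end of chromosome 2, and tgp1 were all below the WT arrays in UV21, by 0.85, 0.55 and 0.60 against WT series 1, and none was 2-fold apart or called by limma.

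The 2 fft3∆ arrays were each set against the WT array of their own series. These differences share no array with UV21 minus WT series 1. WT series 2 and 3 also form part of the WT range and of the limma fit used for UV21. Over probes that passed on all 6 H3K9me2 arrays, the differences were as follows. At the 4 subtelomeres fft3∆ minus WT was −2.38 to −1.64 in series 2 and −4.11 to −1.56 in series 3, where UV21 minus WT series 1 was −2.27 to −1.01. At the pericentromeres fft3∆ gave −1.60 to −0.54, whereas UV21 gave 1.14 to 1.28, and in the 6 flanks fft3∆ gave −1.72 to −0.73 and UV21 0.48 to 0.98. The mating-type region had −0.80 in fft3∆ series 2 and −3.70 in series 3, beside −2.72 in UV21. The difference between the genotypes was not tested.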

How the data were processed

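H3K9me2 was measured on 1 UV21 and 3 WT 2-colour Agilent tiling arrays, with fragments of 500 to 1000 bp after fixation in 3% paraformaldehyde and amplification by random-primed PCR, per the labels' protocols. The deposited scanner files came from Agilent Feature Extraction, version 12.0.3.1 for UV21, WT series 1 and WT series 2 and 11.5.1.1 for WT series 3, per the file headers. The authors' deposited intensity values per spot and channel are the scanner's median, background-subtracted and processed signals. The deposited log10 ratio is red over green, per the file headers. Cy5 was the ChIP on every array, with no dye swap, so a dye effect stays in each level. The genome build of the probes is not given in the sources used here; names came from ASM294v3 placed on the array's own positions, and names in the left 100 kb of chromosome 2 are less sure.

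The deposited log10 ratio was turned to log2 and the array median subtracted, with no loess. Probes flagged non-uniform, or with Cy3 not flagged well above background, on any of the 4 arrays were left out. Median Cy3 was 19.7 to 208 times and Cy5 22.8 to 100.1 times the background, but precision is limited by how few arrays there are. The authors' processed log2 ratio, normexp on the median signals (offset 50, since mean signals were not used here), other references, windows and folds were alternatives. Limma 3.58.1 in R 4.3.3 was tested on simulated data. Tables and plots used Python 3.11.15, pandas 2.3.3, numpy 2.4.6 and matplotlib 3.10.9.

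Genes named are the 10 furthest down and the 10 furthest up outside the WT range, members of the gene lists, ura4, fft3 and genes in the 5 longest stretches per direction, and other genes called by limma were named after their values were seen. Members and lists were chosen with earlier results of these data known.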

Additional observations from a re-analysis of the deposited data

How the results depend on the processing

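No paired analysis was possible because UV21 and WT share only 1 replicate number, and the slide as a random block was not run because its correlation could not be estimated. Of 39 region and gene values past 2-fold, 35 kept their direction with processed signals, 37 after scaling to an equal pericentromeric mean, and 39 under each other choice of reference, ratio or filter (13 of 13 with medians of probes). Still past 2-fold were 22 of the 39 with WT series 2 as reference, 27 with WT series 3, 26 with the WT mean, 35 with processed signals, 27 after scaling, 8 of 13 with medians and 38 or 39 under the others. With the mean of the 3 WT arrays as reference, 40 windows and 0 genes were higher and the pericentromeric difference was 1.04. With WT series 2, 30 windows and 2 genes were higher, the pericentromeric difference was 0.94, the subtelomeric −0.82 and the median of the Mmi1 targets −1.42. With WT series 3, 219 windows and 129 genes were lower and 3 genes higher, with −0.90 beside the subtelomeres, 0.26 in the flanks, −3.40 in the mating-type region and 0.96 at the pericentromeres. Windows of 1 kb gave 246 lower and 129 higher and windows of 5 kb gave 53 and 31. A fold of 1.5 gave 205 windows lower and 274 higher, and 126 genes lower and 171 higher. A fold of 4 gave 60 windows lower and 2 higher, and 33 genes lower and 0 higher. Medians of probes gave −1.93 for the mating-type region, 0.36 for the pericentromeres and −1.98 for the subtelomeres. Processed signals gave 19 windows higher, −0.34, −0.33 and −0.27 for pericentromeres 1, 2 and 3, and −0.31 over all. Scaling to an equal pericentromeric mean set that mean to 0 and gave 9 windows and 2 genes higher, 0.16 over the flanks (−0.059 and −0.087 left and right of pericentromere 1), −0.20 at pericentromere 3, −0.50 at the pNSU contigs and −2.19 at the subtelomeres. By limma, leaving out 1 WT array at a time gave 58 to 137 windows lower and 1 to 197 higher, and 0 to 86 genes lower and 0 to 86 higher. Limma called 64 windows lower and 1 higher after normexp, 75 and 9 with non-uniform features kept, 0 higher with processed signals, and 0 windows and 0 genes in the fit of all 6 H3K9me2 arrays, where unadjusted counts are those given with the limma result. The cause of these changes was not tested. With 1 UV21 array, its own spread is unknown.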
